A study of Mus musculus with 16 samples.

Results

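The genes described here carry out antigen presentation by class I molecules of the major histocompatibility complex (MHC). They were taken by name: H2-T24 and H2-T23 (class I heavy chains), B2m, Tap1, Tap2, Tapbp, Psmb8, Psmb9, Psmb10 and Nlrc5, 10 genes in all. A probe set annotated to the gene alone was found for 9 of the 10, out of 19752 genes measured in this way, and these 9 genes hold 27 of 21425 such probe sets. Nlrc5 has 19 of them and each of the other 8 genes has 1. H2-T23 has no probe set of its own. It shares 1 with the pseudogene H2-T-ps, whose values are given under both names and are not counted among the 9 genes.

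RNA was measured on 16 mouse gene expression arrays in 8 groups of 2, from sorted cells of male mice. Peritoneal macrophages (ICAM2+ F4/80+) of 6-week-old B6.129S2-Ifnar1tm1Agt/Mmjax mice, which carry a targeted Ifnar1 allele and are called KO here, were either collected 2 h after mice had 10000 units of interferon alpha (IFNα) under the skin or belong to a pair titled without IFNα. The other 6 groups came from 7-week-old B10.Q/J mice: peritoneal macrophages and splenic CD4+ T cells (TCRB+ CD4+ CD8-), each with vehicle, 2 h after IFNα and 5 h after IFNα. For either cell type, vehicle array 1 was collected at 2 h and vehicle array 2 at 5 h. By the series title, the question is how far responses to IFNα need the receptor subunit IFNAR1 and the receptor-associated kinase Tyk2. B10.Q mice carry a natural mutation of Tyk2, so every B10.Q array, vehicle included, shares it, and no group with both genes intact is analysed here. B10.Q also has the q haplotype of the MHC where C57BL/6 has b. Strain, age, MHC haplotype and the Ifnar1 and Tyk2 genotypes cannot be told apart in any comparison of B10.Q with KO cells. For the KO pair titled without IFNα, the preparation field nevertheless records IFNα at 2 h. Its title was followed, and both KO groups were treated if the field is right. The labels do not tell whether arrays of 1 group are separate animals, and p-values cover the spread between arrays, which may be technical.

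A class I molecule is a heavy chain paired with β2-microglobulin that displays short peptides from inside the cell to CD8 T cells and NK cells. The peptides are cut by the proteasome, in which 3 inducible subunits (Psmb8, Psmb9 and Psmb10) can replace constitutive ones to form the immunoproteasome. The transporter made of Tap1 and Tap2 moves them into the endoplasmic reticulum, where tapasin (Tapbp) bridges the transporter and the empty heavy chain. Nlrc5 is the transcriptional coactivator of class I genes. Many genes of this pathway are known targets of interferons.

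By the RefSeq annotation of GRCm38.p6, Psmb9, Tap1, Psmb8 and Tap2 are consecutive protein-coding genes on chromosome 17, in that order. Tapbp, H2-T24 and H2-T23 lie on the same chromosome, with H2-T24 next to H2-T23. B2m is on chromosome 2, and Nlrc5 and Psmb10 are on chromosome 8. Start-site windows of 250 bases before to 50 bases after the start were found for 7 of the 10 genes. Both strands were searched for GAAANNGAAA, the core of the interferon-stimulated response element. It is held by 3.44% of 32851 mouse windows of the same length. Among the 7, B2m and H2-T23 held it once each, and Tap1, Psmb8, Psmb9, Psmb10 and Tapbp did not hold it. A match is a description of letters and not a site. The windows of B2m and Tap1 are shown because their readings in B10.Q macrophages after IFNα looked different. In the counts reported below Tap1 was not called there, and the difference between these genes was not tested. B2m is printed with the match in capitals. The Tap1 window also covers the start of Psmb9, which is read from the other strand: the starts are 226 bases apart and the windows share 275 bases. In it the first 25 bases in capitals belong to Psmb9 and the last 50 to Tap1, with the bases between both starts in lower case.
B2m (chr2:122147437-122147736, plus strand): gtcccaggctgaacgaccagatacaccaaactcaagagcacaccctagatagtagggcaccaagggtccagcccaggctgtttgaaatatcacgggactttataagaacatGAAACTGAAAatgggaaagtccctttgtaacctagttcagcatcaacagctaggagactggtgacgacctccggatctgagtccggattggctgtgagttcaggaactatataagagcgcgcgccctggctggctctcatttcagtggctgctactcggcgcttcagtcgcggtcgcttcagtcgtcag
Tap1 (chr17:34187306-34187605, plus strand): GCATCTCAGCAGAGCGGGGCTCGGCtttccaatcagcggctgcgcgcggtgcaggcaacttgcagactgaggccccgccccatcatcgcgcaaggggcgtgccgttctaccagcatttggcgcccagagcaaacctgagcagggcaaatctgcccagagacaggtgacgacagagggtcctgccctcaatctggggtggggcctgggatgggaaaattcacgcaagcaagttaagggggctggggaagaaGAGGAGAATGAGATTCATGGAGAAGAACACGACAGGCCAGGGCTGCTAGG

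All values below are log2 of the deposited array intensity. Array medians lay between 7.44 and 7.60 and lower quartiles between 6.29 and 6.52, and the 2 arrays of a group correlated at 0.984 to 0.997 over all probe sets. The defining markers of the labelled cells were high where they should be: the mean of 8 macrophage markers was 11.49 to 12.14 on macrophage arrays, and the mean of 8 CD4 T-cell markers was 11.73 to 11.93 on T-cell arrays. Of the 6 B10.Q macrophage titles, 5 carry a spleen code where the source field names the peritoneal cavity, and Gata6, a marker of peritoneal macrophages, read 11.31 to 11.85 on these 6. The title of vehicle T-cell array 1 opens with a B-cell-like code, unlike its partner's, and the cell family field was followed. Its T-cell markers averaged as high (both within 11.89 to 11.93), and its B-cell markers averaged 6.86 against 6.97 on its partner. Some arrays stood apart. On array 1 of T cells at 2 h the macrophage markers averaged 7.96, against 6.94 to 7.22 on the other 5 T-cell arrays. On array 1 of KO macrophages with IFNα they averaged 11.49, against 11.82 to 12.14 on the other 9 macrophage arrays. The B-cell gene Ms4a1 read 7.89 on that array and 7.54 on array 1 of the KO pair without IFNα, against 5.68 to 5.88 on the other 8 macrophage arrays. The mean of all 7 B-cell markers ran from 6.83 to 7.70 in the KO pair with IFNα, from 6.91 to 7.45 in the pair without it and from 6.74 to 6.84 in B10.Q macrophages, and its part in the KO values was not tested. The Ifnar1 probe set read 9.93 to 10.31 in KO macrophages and 10.09 to 10.46 in B10.Q macrophages, so it does not check the genotype. Mx1, an antiviral interferon target, read 6.14 to 6.43 on all 4 KO arrays and 10.47 to 11.87 in B10.Q macrophages after IFNα.

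H2-T24, a non-classical class I heavy chain gene, rose after IFNα in B10.Q macrophages at both times and in T cells at 2 h. Its vehicle macrophage arrays both read 9.11. At 2 h the macrophage arrays read 11.38 and 10.71, and at 5 h they read 11.24 and 11.49. Every treated macrophage array thus lay above both vehicle arrays. The difference was 1.94 ± 0.21 at 2 h (SE of the log2 difference, n = 2 arrays per group throughout; 3.83-fold, limma adjusted p = 0.00161) and 2.26 ± 0.21 at 5 h (4.79-fold, adjusted p = 6.48e-04). The 5 h and 2 h arrays overlapped, and their difference of 0.32 ± 0.21 was not called (adjusted p = 0.904). In sorted bulk cells, fewer cells of a type and less RNA per cell cannot be told apart, here and in all that follows. H2-T24 belongs to a family of similar genes, and whether its probes also bind relatives was not tested.

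In T cells H2-T24 read 9.47 and 9.42 with vehicle, 11.48 and 10.77 at 2 h, and 10.37 and 10.42 at 5 h. Both 2 h arrays were above both 5 h arrays, which were above both vehicle arrays. The rise at 2 h was 1.68 ± 0.20 (3.21-fold, limma adjusted p = 0.0269). At 5 h the difference from vehicle was 0.95 ± 0.20 and was not called (adjusted p = 0.646; 5.19e-04 and called when only the compared groups were fitted), nor was the step of -0.73 ± 0.20 from 2 h to 5 h (adjusted p = 0.405). That step was -0.37 without 2 h array 1 and -1.08 without 2 h array 2. Only 29 genes in all were called in T cells at 2 h. Array 1 at 2 h is the array with raised macrophage markers. Without it the rise was 1.33, and without 2 h array 2 it was 2.04. The call was kept in either fit. It was lost without vehicle array 1 (1.70) and without vehicle array 2 (1.66). Each of these fits leaves 1 array in a group, so no p is given. The call was also lost when only the compared groups entered the fit (limma adjusted p = 0.151).

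In KO macrophages H2-T24 read 8.89 and 9.24 without IFNα and 8.74 and 8.90 with it. The groups overlapped, with a difference of -0.24 ± 0.21 (limma adjusted p = 1). The response of B10.Q macrophages exceeded that of KO macrophages by 2.18 ± 0.29 (95% interval 1.53 to 2.83, adjusted p = 0.011). That call was lost without either B10.Q vehicle array (2.18 each). It was also lost without array 2 of the KO pair titled without IFNα (2.01). Each of these fits leaves 1 array in a group, so no p is given. Between cell types, the macrophage response was larger by 0.26 ± 0.31 at 2 h (95% interval -0.43 to 0.94) and by 1.30 ± 0.31 at 5 h (0.62 to 1.99), and neither difference was called (adjusted p = 0.853 and 0.215). With only the compared groups fitted, the one at 5 h was called (adjusted p = 2.88e-04). From highest to lowest, the group means were 11.37 in macrophages at 5 h, 11.12 in T cells at 2 h, 11.04 in macrophages at 2 h, 10.40 in T cells at 5 h, 9.44 in vehicle T cells, 9.11 in vehicle macrophages, 9.06 in KO macrophages without IFNα and 8.82 in KO macrophages with it. The first 3 groups overlapped one another, as did vehicle macrophages with the KO pair without IFNα and the KO pairs with each other.

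The probe set shared by H2-T-ps and H2-T23 showed smaller differences. H2-T23 encodes the heavy chain of Qa-1, a ligand of NK-cell receptors. The shared probe set read 11.22 and 11.16 in vehicle macrophages, 11.38 and 11.28 at 2 h and 11.58 and 11.43 at 5 h. Its differences of 0.14 ± 0.13 and 0.31 ± 0.13 were not called, and in T cells they were 0.12 ± 0.12 at both times. H2-T24 and the shared probe set stand next to each other in the annotation, and the difference between their responses was not tested.

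B2m, the invariant light chain of every class I molecule, read between 13.24 and 13.47 on all 16 arrays. Vehicle macrophages read 13.25 and 13.30, and treated ones 13.31 and 13.25 at 2 h and 13.36 and 13.24 at 5 h. The difference at 2 h was 0.01 ± 0.11, with a 95% interval of -0.24 to 0.25, and no comparison called the gene.

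**Figure D1:**
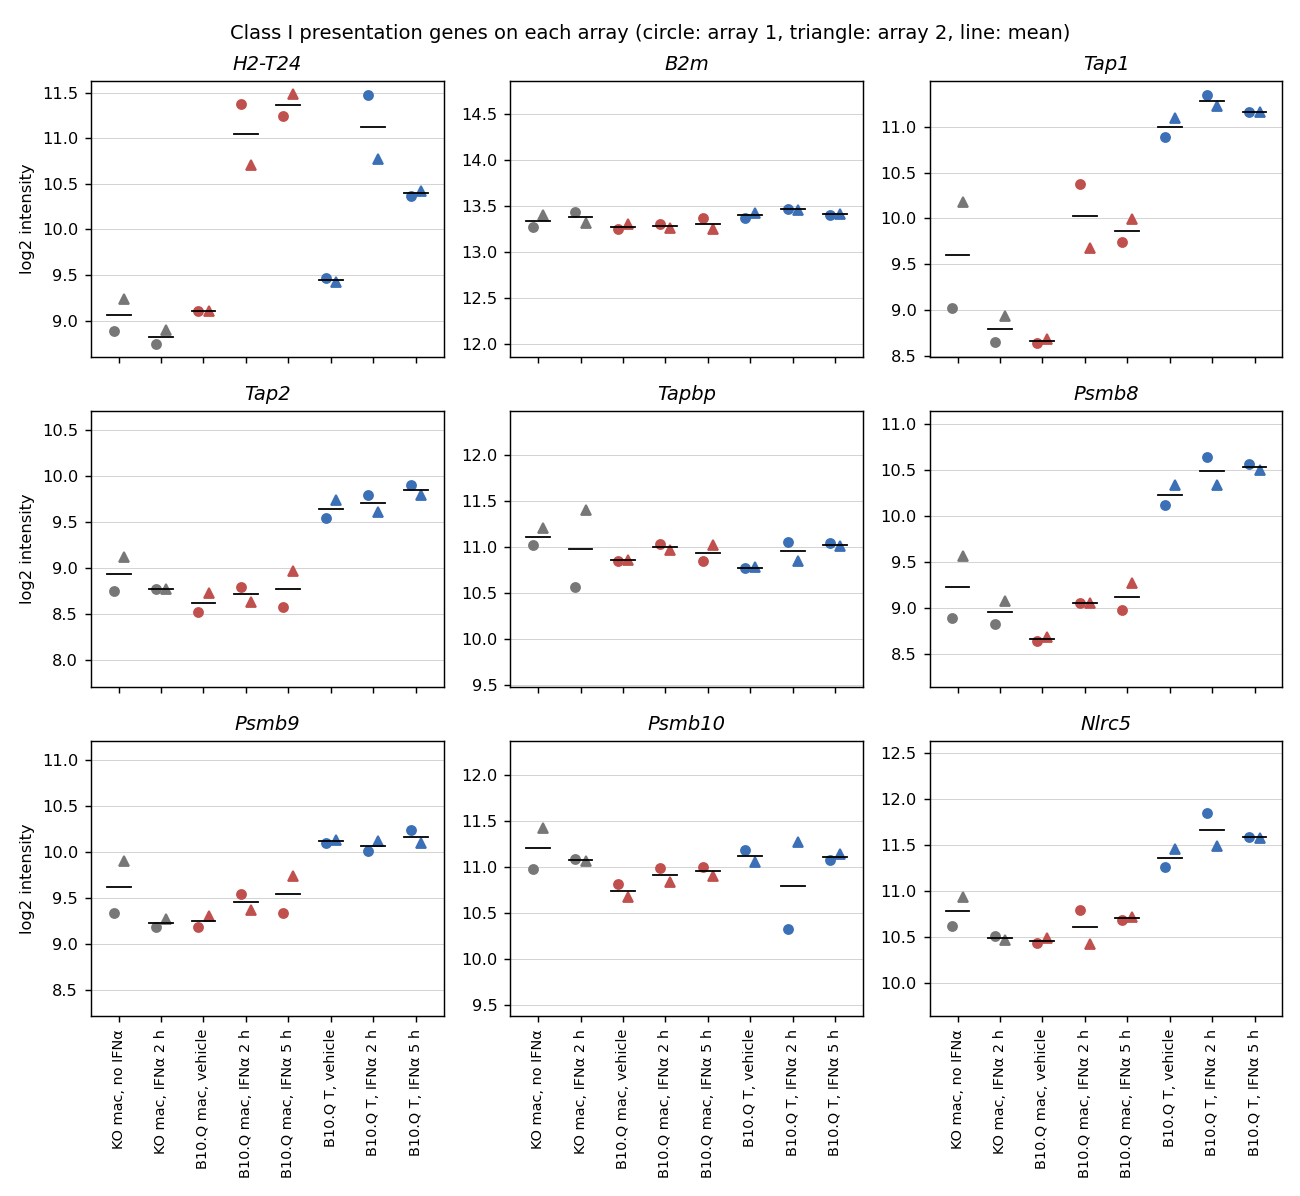
Log2 intensity of 9 class I presentation genes on each of 16 arrays. All panels span nearly the same height on the log2 scale, circles and triangles are the 2 arrays of a group and lines are their means. H2-T24 lies at 10.71 to 11.49 in B10.Q macrophages after IFNα against 9.11 with vehicle, while B2m stays between 13.24 and 13.47 on all arrays.

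Tap1, one chain of the peptide transporter, had higher readings after IFNα in B10.Q macrophages, without passing the threshold over all genes. It read 8.65 and 8.69 with vehicle, 10.37 and 9.68 at 2 h, and 9.74 and 9.99 at 5 h. Every treated array was at least as high as 9.68, and neither vehicle array passed 8.69. The difference was 1.35 ± 0.33 at 2 h (2.55-fold, 95% interval 1.53 to 4.25, limma adjusted p = 0.184) and 1.19 ± 0.33 at 5 h (2.29-fold, adjusted p = 0.308). The fit shares 1 estimate of spread over all 5 macrophage groups. With only the compared groups fitted, Tap1 was called at 2 h (adjusted p = 0.0103) and at 5 h (adjusted p = 7.10e-04), and with all 16 arrays at 2 h (adjusted p = 0.0408).

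The KO arrays of 1 pair lay far apart. Tap1 read 9.02 and 10.18 in the KO pair without IFNα and 8.66 and 8.94 in the KO pair with it, so the untreated pair was the higher and the wider one. The difference of -0.80 ± 0.33 was not called (adjusted p = 1), and without array 2 of the untreated pair it was -0.22. That array also read highest of the 4 KO arrays for Psmb8, Psmb9, Tap2, Psmb10 and Irf1. Its Mx1 (6.43, against 6.36 on its partner) and Ifit1 (6.43, against 6.39) readings were close to its partner's. The B10.Q response exceeded the KO response by 2.15 ± 0.47 (adjusted p = 0.123). It was 2.73 without array 1 of the untreated KO pair, 1.57 without array 2 of that pair and 2.30 without array 2 of the KO pair with IFNα. In the fit of all 16 arrays it was called (limma adjusted p = 0.0254). Vehicle B10.Q macrophages differed from the untreated KO pair by -0.93 ± 0.33, which was not called (adjusted p = 0.325). This was -0.35 without array 2 of that pair and -1.51 without array 1.

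In T cells Tap1 was high throughout. It read 10.89 and 11.10 with vehicle, 11.34 and 11.22 at 2 h and 11.16 on both arrays at 5 h. Treated arrays all exceeded vehicle arrays, by 0.29 ± 0.10 at 2 h and 0.17 ± 0.10 at 5 h, and neither was called (limma adjusted p = 0.763 and 1). The macrophage response was larger than the T-cell response by 1.06 ± 0.25 at 2 h and 1.03 ± 0.25 at 5 h, again without a call (adjusted p = 0.371 and 0.228). Without array 2 of macrophages at 2 h the difference at 2 h was 1.41. The one at 5 h was called when only the compared groups were fitted (limma adjusted p = 0.00362). The order of group means ran from 11.28, 11.16 and 10.99 in T cells at 2 h, at 5 h and with vehicle, which did not overlap, through 10.02 and 9.86 in macrophages at 2 h and 5 h and 9.60 in untreated KO macrophages, which did, to 8.80 in KO macrophages with IFNα and 8.67 in vehicle B10.Q macrophages, which overlapped each other.

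Tap2, the other chain of the transporter, overlapped vehicle in macrophages. It read 8.52 and 8.72 with vehicle, 8.79 and 8.63 at 2 h and 8.57 and 8.96 at 5 h. Its differences were 0.09 ± 0.17 at 2 h (95% interval -0.28 to 0.46) and 0.15 ± 0.17 at 5 h (-0.23 to 0.52). In T cells it differed from vehicle by 0.06 ± 0.11 at 2 h and 0.21 ± 0.11 at 5 h. Tapbp, which encodes tapasin, differed by 0.15 ± 0.22 and 0.08 ± 0.22 in macrophages and by 0.18 ± 0.10 and 0.25 ± 0.10 in T cells. Both T-cell times had all treated arrays above vehicle (10.85 to 11.06 against 10.77 and 10.79), with adjusted p = 0.763 and 1 from limma. Tapbp was uneven in the KO pair with IFNα, at 10.57 and 11.40. Without array 2 of that pair the KO difference became -0.55, and without array 1 it was 0.28. Leaving out array 2 also moved the B10.Q against KO response of Tapbp to 0.70. Such fits leave 1 array in the group, so no p is given. The 2 probe sets that Tapbp shares with Rps3a1 were not used.

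Of the immunoproteasome subunits, Psmb8 (LMP7) had the largest macrophage differences, though these did not pass. It read 8.65 and 8.69 with vehicle, 9.05 on both arrays at 2 h, and 8.97 and 9.27 at 5 h. No treated array overlapped vehicle, but the differences of 0.38 ± 0.20 at 2 h (95% interval -0.06 to 0.83, limma adjusted p = 0.984) and 0.46 ± 0.20 at 5 h (0.01 to 0.90, adjusted p = 1) were not called. In T cells it read 10.12 and 10.33 with vehicle, 10.64 and 10.33 at 2 h and 10.56 and 10.50 at 5 h, with differences of 0.26 ± 0.13 and 0.31 ± 0.13. Psmb9 (LMP2) read 9.19 and 9.30 in vehicle macrophages, 9.55 and 9.37 at 2 h and 9.34 and 9.74 at 5 h, which gave 0.21 ± 0.19 and 0.29 ± 0.19. In T cells it lay between 10.01 and 10.24 on all 6 arrays, with differences of -0.05 ± 0.09 and 0.05 ± 0.09.

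Psmb10 (MECL-1) differed by 0.17 ± 0.15 and 0.21 ± 0.15 in macrophages, with treated arrays at 10.84 to 11.01 and vehicle at 10.67 and 10.82. Its T-cell difference at 2 h was -0.33 ± 0.26, and this rests on 1 array: array 1 at 2 h read 10.32, while the other 5 T-cell arrays lay between 11.06 and 11.27. That is the array with raised macrophage markers, whose part in this value was not tested. Without it the difference was 0.15, and without its partner, array 2 at 2 h, it was -0.80. Leaving out that partner also moved Psmb8 to 0.41 and Nlrc5 to 0.48 at 2 h. The 5 h against 2 h step of Psmb10 became 0.79, and its macrophage response at 2 h then exceeded the T-cell response by 0.97. Array 1 alone then stands for T cells at 2 h, so no p is given.

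In the gene order of chromosome 17, then, the macrophage differences at 2 h ran 0.21 for Psmb9, 1.35 for Tap1, 0.38 for Psmb8 and 0.09 for Tap2. Psmb9 and Tap1 share the start region printed above. Differences between these genes were not tested.

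**Figure D2:**
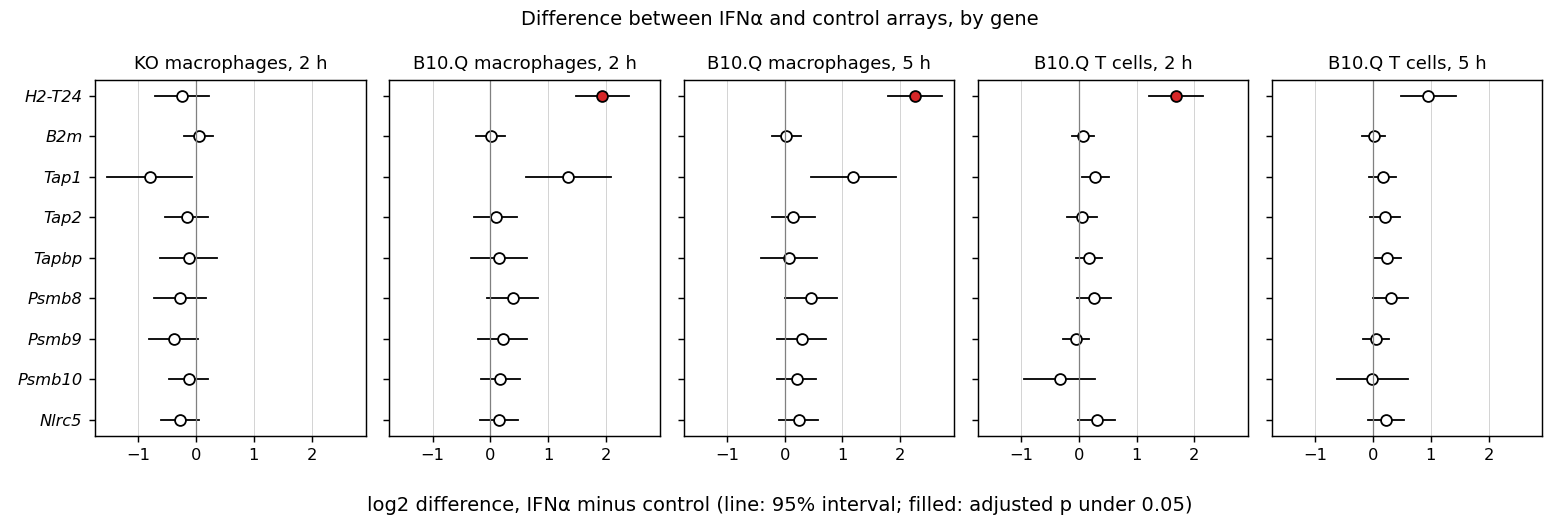
Log2 difference between IFNα and control arrays with its 95% interval, for 9 class I presentation genes in 5 comparisons, each of 2 against 2 arrays. Filled points, all of them H2-T24, passed an adjusted p under 0.05. Tap1 lies at 1.35 and 1.19 in B10.Q macrophages and at -0.80 in KO macrophages, and B2m lies at 0.01 to 0.07 in all 5.

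Nlrc5 gave different readings on its 19 probe sets. The probe set with the highest mean, which stands for the gene in all counts here, read 10.43 and 10.49 in vehicle macrophages, 10.80 and 10.42 at 2 h and 10.68 and 10.72 at 5 h. It differed by 0.15 ± 0.15 and 0.24 ± 0.15, and was not called. Most of the other probe sets had larger differences. Over all 19 probe sets, the median reading per array was 7.69 and 7.83 with vehicle, 8.91 and 8.11 at 2 h, and 8.70 and 8.87 at 5 h. Of the 19, 18 could be tested in macrophages, in a fit of every probe set. All 18 differences were above 0 at 2 h (0.14 to 1.59, median 0.90), and 14 had both treated arrays above both vehicle arrays, against 12.9% of 13220 probe sets tested. None of the 18 was called at 2 h, against 0.749%. At 5 h all 18 were above vehicle on both arrays (median 1.17), against 18.1% of probe sets, and 3 were called, against 0.87%. These counts, and those for KO macrophages below, are a description and support nothing, since some of the 18 entered the fit only through groups where they read high. The 1 call whose vehicle arrays (8.24 and 8.20) lay above their array's median had a difference of 1.71 ± 0.31 (limma adjusted p = 0.0423). The other 2 called probe sets had at least 1 vehicle array at or below its lower quartile, so no fold is given for them. Of the 19, 11 had both vehicle arrays above their array's median. Among these 11, a subset taken after seeing the data, 7 were above vehicle on both arrays at 2 h (median 0.40) and all 11 at 5 h (median 0.62), with 0 and 1 called. Probe sets of 1 gene share its RNA and are not replicates of it.

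One of the probe sets dim with vehicle read 6.31 and 6.25 in vehicle macrophages, 8.39 and 7.35 at 2 h, 8.09 and 8.39 at 5 h, 7.75 and 8.70 in untreated KO macrophages and 6.65 and 6.98 in KO macrophages with IFNα. The untreated KO pair thus lay with the treated B10.Q arrays, not with the vehicle arrays. It was the 1 call among the 18 for a B10.Q response above the KO response (limma adjusted p = 0.0462), against 0.408% of probe sets. With its vehicle readings at the arrays' lower quartile, the size of that difference is not given. In KO macrophages none of the 18 differences was above 0, and 17 had both IFNα arrays below both untreated arrays (median -0.93), against 10.3% of probe sets. None of these was called, nor was any other probe set (0%). The same 18 were all lower in vehicle B10.Q than in untreated KO macrophages on every array (median -1.30), against 24.4%, again with no call among the 18 and 0.424% over all. Array 2 of the untreated KO pair is the high one here too, with a median over the probe sets of 9.29 against 8.54 on its partner and 8.05 and 8.22 in the treated pair.

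In T cells the Nlrc5 medians were higher and lay closer to vehicle after IFNα. They were 9.80 and 10.03 with vehicle, 10.24 and 10.19 at 2 h and 10.09 and 10.16 at 5 h. All 19 probe sets were above 0 at both times, with medians of 0.37 and 0.25. None of the 19 was called, against 0.187% and 0.0156% of 12809 probe sets. With the mean of all probe sets of a gene in place of the highest one, an alternative chosen after seeing the data, Nlrc5 differed by 0.77 at 2 h (limma adjusted p = 0.679) and 1.07 at 5 h (adjusted p = 0.176) in macrophages, without a call.

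**Figure D3:**
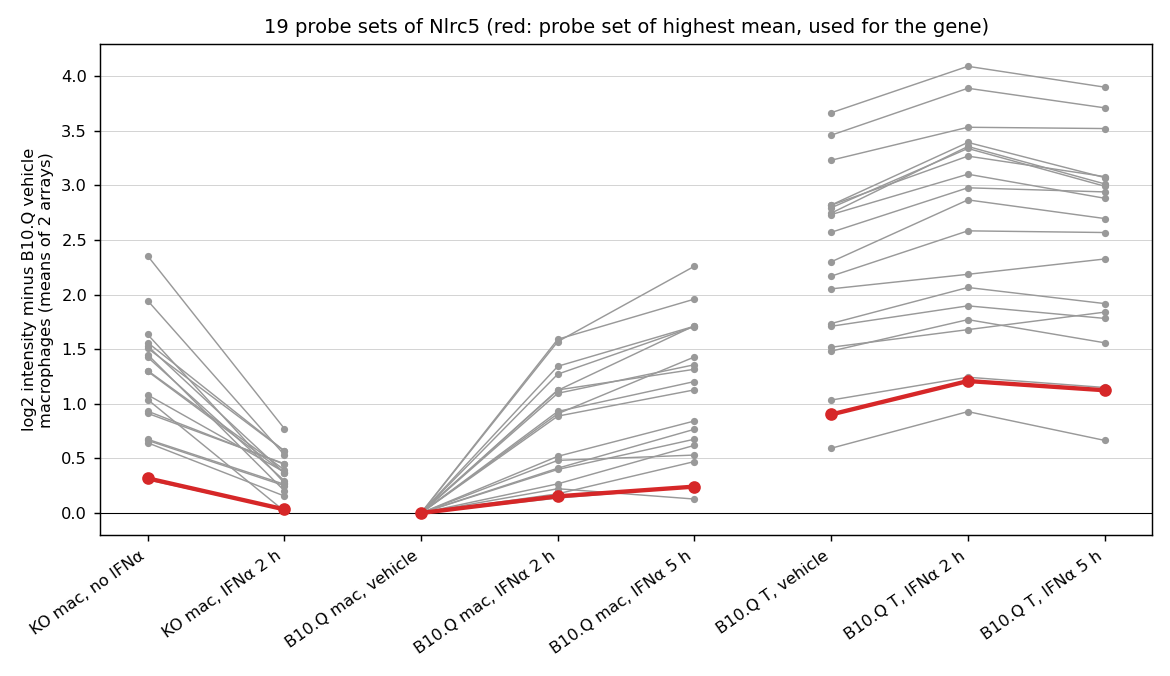
Mean log2 intensity of each of 19 Nlrc5 probe sets in 8 groups, minus its mean in vehicle B10.Q macrophages. The red line is the probe set of highest mean, at 0.15 and 0.24 after IFNα in B10.Q macrophages, and the grey lines are the other probe sets, which reach 1.59 at 2 h and 2.26 at 5 h. All 19 lie above 0 in vehicle T cells, and all lie above 0 in untreated KO macrophages.

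Counted over the 9 genes, IFNα calls were few. In B10.Q macrophages 1 of 9 (H2-T24) was called at 2 h, where 0.798% of 10531 genes were called, and 1 of 9 at 5 h, where 0.836% were. In T cells 1 of 9 was called at 2 h, against 0.287% of 10112 genes, and 0 of 9 at 5 h, against 0.0198%. In KO macrophages 0 of 9 and 0% of all genes were called by limma, although 460 genes (4.37%), Tap1 among them, had an unadjusted p under 0.05. The 5 h against 2 h steps called 0 of 9 in macrophages (0.0095% of genes) and in T cells (0.00989%). At an unadjusted p under 0.05, none of the 9 passed that step in macrophages (5.02% of all genes did) and H2-T24 did in T cells (9.85%).

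The small differences leaned upward in B10.Q cells. The genes were chosen with earlier results of these data known, so the shares below are a description. At 2 h in macrophages all 9 were above 0, with a median of 0.17 against -0.06 over all genes tested, and 6 of 9 had both treated arrays above both vehicle arrays, against 11.3%. At 5 h all 9 were again above 0, with a median of 0.24 against -0.01, and 6 of 9 did not overlap, against 19.1%. Both comparisons use the same vehicle arrays. With 1 array left out in turn, 7 to 9 of the 9 genes stayed above 0 at either time. In T cells 7 of 9 were above 0 at 2 h (6 without vehicle array 1) and 8 of 9 at 5 h. The medians were 0.18 and 0.21 against -0.03 and 0.00, and 6 of 9 lay wholly above vehicle at each time, against 14.5% and 21.7%. In KO macrophages 8 of 9 were below 0, with a median of -0.24 against -0.01, and 3 of 9 lay wholly lower, against 10.3%. This lean rests on array 2 of the untreated pair: without it 5 of 9 were below 0, with a median of -0.04.

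The remaining comparisons of responses called few of the genes. H2-T24 was the 1 of 9 called for a larger response in B10.Q than in KO macrophages, against 0.408% of genes, and the median of the 9 was 0.44 against -0.04. The responses of macrophages and T cells differed for 0 of 9 at 2 h (0.0269% of genes) and 0 of 9 at 5 h (0.251%). At an unadjusted p under 0.05 this difference passed for Tap1 at 2 h and for Tap1 and H2-T24 at 5 h, against 7.3% and 4.98% of all genes. Between vehicle B10.Q and untreated KO macrophages 0 of 9 were called, against 0.541% of genes, while Tap1, Psmb8 and Psmb10, and 11.5% of all genes, had an unadjusted p under 0.05. There 7 of 9 were lower in B10.Q on both arrays, against 24.4%, with a median of -0.32 against 0.03 over all genes. Psmb8 differed by -0.57 ± 0.20 and Psmb10 by -0.46 ± 0.15, and H2-T24 by 0.04 ± 0.21. These values too moved with array 2 of the untreated KO pair. Without it the median of the 9 was -0.16 and both Psmb8 and Psmb10 differed by -0.23.

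Without IFNα, the larger differences were between the cell types. Macrophages came from the peritoneal cavity and T cells from the spleen, so cell type and tissue cannot be told apart in any comparison between them. Vehicle macrophages had less signal than vehicle T cells for 5 of the 9 genes, where 34.1% of 11161 genes were called lower and 62.1% were called in either direction. Tap1 was lower by 2.32 on the log2 scale, a difference of -2.32 ± 0.18 (0.200-fold, limma adjusted p = 1.68e-07). Psmb8 followed at -1.56 ± 0.13 (0.339-fold, adjusted p = 2.91e-07), Tap2 at -1.02 ± 0.14 (adjusted p = 3.64e-05), Nlrc5 at -0.90 ± 0.14 (adjusted p = 1.09e-04) and Psmb9 at -0.87 ± 0.13 (adjusted p = 7.03e-05). All 19 Nlrc5 probe sets were called lower in macrophages (median -2.30), against 34% of probe sets called lower. This count too is a description and supports nothing. Probe sets of 1 gene are not replicates, and not all of the 19 would have entered the fit without the T-cell arrays. The largest difference is not given, since both vehicle macrophage arrays lay at or below their lower quartile there. These 5 genes kept their call under every alternative run, each array left out in turn included.

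The other 4 genes were not called between the cell types. Psmb10 differed by -0.38 ± 0.22, H2-T24 by -0.34 ± 0.22, B2m by -0.12 ± 0.09 (95% interval -0.31 to 0.07) and Tapbp by 0.08 ± 0.10 (-0.13 to 0.29). H2-T24 and Psmb10 were called when only the compared groups were fitted (adjusted p = 0.00375 and 0.00558 from limma). In all, 8 of 9 genes were lower in macrophages on both arrays, against 48.5% of genes, and the median was -0.87 against -0.07. In vehicle T cells the macrophage markers averaged 6.94 and 7.13, and in vehicle macrophages the T-cell markers averaged 6.28 and 6.39.

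**Figure D4:**
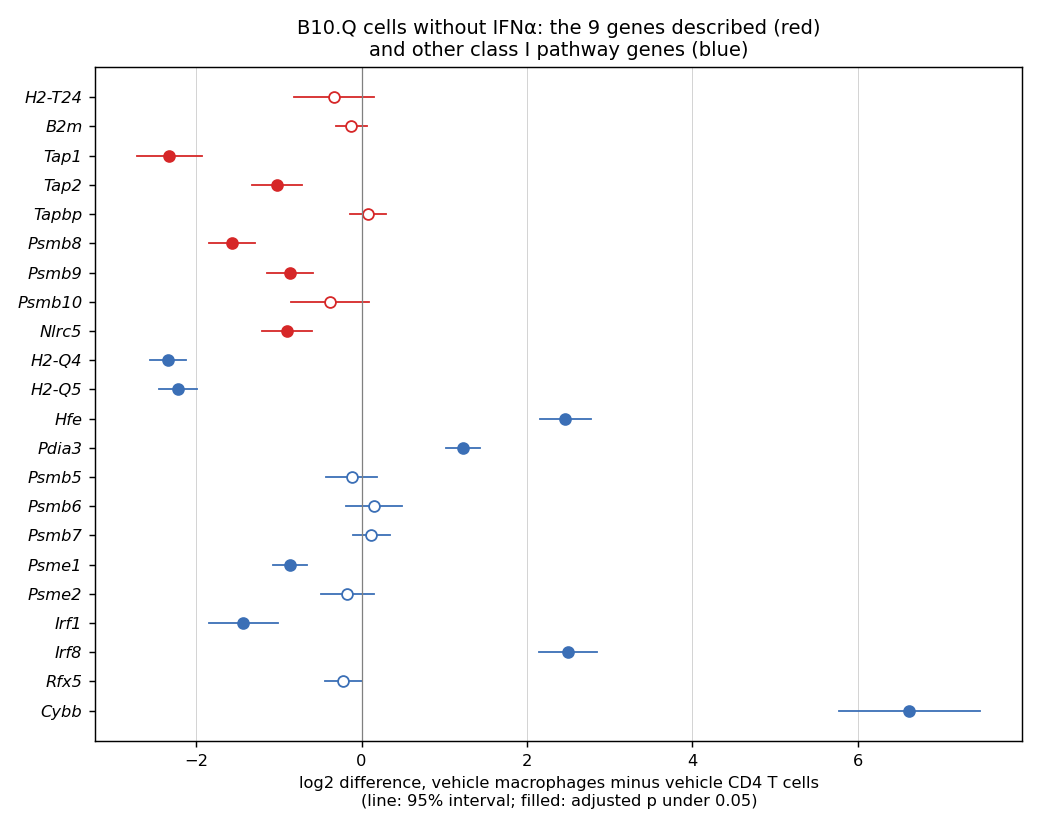
Log2 difference between vehicle macrophages and vehicle CD4 T cells of B10.Q mice with its 95% interval, 2 against 2 arrays, for the 9 genes described (red) and 13 other class I pathway genes (blue). Filled points passed an adjusted p under 0.05. Tap1, at -2.32, is the lowest red point, and the constitutive subunits Psmb5, Psmb6 and Psmb7 lie at -0.12 to 0.15.

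The wider class I pathway was read from a list of 75 other genes, of which 60 had a probe set of their own. The classical heavy chains H2-K1 and H2-D1 had none and are not analysed here. None of the list's tested genes (55 in macrophages, 52 in T cells and 56 across both) was called for a response to IFNα, a step from 2 h to 5 h, a difference between responses, or vehicle B10.Q against untreated KO macrophages. By unadjusted p under 0.05 from limma, 1 passed in macrophages at 2 h, 2 at 5 h and 6 in T cells at 2 h, all upward, as did 4.52%, 3.93% and 6.07% of all genes in either direction. In T cells at 5 h 1 listed gene passed downward (3.83% of all genes), and in KO macrophages 2 did (4.37%). Irf1, a transcription factor that acts on class I promoters, came closest. It read 9.03 and 9.09 in vehicle macrophages, 10.72 and 10.22 at 2 h and 9.64 and 9.94 at 5 h, a difference of 1.41 ± 0.30 at 2 h (adjusted p = 0.0964) and 0.73 ± 0.30 at 5 h. In KO macrophages it read 9.50 and 10.61 without IFNα and 9.18 and 9.43 with it, the same high array as for Tap1. The proteasome activator subunits Psme1 and Psme2 differed by 0.27 ± 0.13 and 0.13 ± 0.13 in macrophages at 2 h, and by 0.21 ± 0.09 and 0.48 ± 0.17 in T cells.

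Between vehicle macrophages and T cells, 22 of 56 listed genes were higher and 16 lower in macrophages, a share of calls to be read against the 62.1% of all genes. The non-classical heavy chains H2-Q4 and H2-Q5 were lower, by -2.34 ± 0.10 (limma adjusted p = 6.11e-10) and -2.22 ± 0.11 (adjusted p = 1.71e-09). These belong to a family of near-identical copies, and which copies the probes read is uncertain, the more so in a strain of another MHC haplotype. Irf1 (-1.43 ± 0.19, adjusted p = 3.02e-05) and Psme1 (-0.87 ± 0.09, adjusted p = 5.01e-06) were lower as well. Higher in macrophages were Cybb, the phagocyte oxidase subunit (6.62 ± 0.39, adjusted p = 1.33e-08), Irf8, a myeloid transcription factor (2.50 ± 0.16, adjusted p = 2.95e-08), Hfe, the class I-like regulator of iron uptake (2.47 ± 0.14, adjusted p = 8.29e-09), and Pdia3, an endoplasmic reticulum chaperone of class I loading (1.23 ± 0.09, adjusted p = 1.64e-07). The constitutive catalytic subunits that the inducible ones replace did not pass: Psmb5 differed by -0.12 ± 0.14, Psmb6 by 0.15 ± 0.15 and Psmb7 by 0.12 ± 0.10. Psme2 (-0.17 ± 0.15) and the class I promoter factor Rfx5 (-0.22 ± 0.10) did not either.

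Likeness to other genes was described over the 12 B10.Q arrays, each as its difference from the vehicle mean of its cell type, among 11161 genes. The arrays share vehicle means, so no p is given. The genes most like H2-T24 were Epsti1, Adar and Usp18 (Pearson r 0.99 each), and those most like Tap1 were Tor3a, Slfn9 and Zc3hav1 (0.99 each). For Psmb8 they were Tcof1, Pcgf5 and Rnf31 (0.94, 0.92 and 0.92), for Psmb9 Il1rap, Tmem229b and Sppl2a (0.94, 0.92 and 0.90), and for Nlrc5 Tasor2, N4bp1 and Myd88 (0.91 each). Psmb10 was most like Got1, Atrip and Msrb1 (0.99, 0.97 and 0.97), with its 1 low T-cell array among the 12. Tap2 (Keap1, Mafg and Rhbdd1), Tapbp (Kat2b, Shfl and Socs3) and B2m (Cd2ap, Gata5os and Ttc39b) had best values of 0.87, 0.89 and 0.86. Among the genes themselves, H2-T24 correlated with Psmb8 at 0.87, with Tap1 at 0.84 and with B2m at 0.35, and Tap1 with Psmb9 at 0.78 and with Tap2 at 0.35.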

How the data were processed

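The authors summarised the arrays (Affymetrix Mouse Gene 1.0 ST) with RMA in Affymetrix Power Tools, per the submitters' processing notes, and deposited linear intensities, 1 for each probe set. Versions, and whether all 16 arrays were normalised together, are not given in the sources used here. The log2 of each value was used with no further scaling. The genes and lists described were chosen with earlier results of these data known. Of 24922 probe sets 21425 have exactly 1 symbol, 1399 several and 2098 none. A gene took its probe set of highest mean, and entered a fit if 2 or more of its arrays exceeded their array's median. limma 3.58.1 in R 4.3.3 fitted 10 macrophage arrays, 6 T-cell arrays or 12 B10.Q arrays by group, giving 12 two-sided contrasts, each adjusted by Benjamini-Hochberg over all genes tested and called at an adjusted p under 0.05. The steps were tested on simulated data. Start-site sequences are from RefSeq (GRCm38.p6). Groups follow the titles. Nothing in the labels says that replicate numbers pair arrays, except that same-numbered vehicle arrays of both cell types share a collection time. Same-numbered deviations correlated between -0.22 and 0.36, which cannot decide whether arrays pair. Arrays have no sequencing depth, so their number limits precision. Named genes are the 9 with a probe set of their own, at most 6 other listed genes by smallest adjusted p, 10 listed genes with fixed roles, Ifnar1, Tyk2, Mx1 and Ifit1, and the 3 genes most like each. The alternatives were other filters, scalings, variance models, sets of arrays or probe sets, an added offset of 16, a replicate block, and each array left out.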

Additional observations from a re-analysis of the deposited data

Results flagged for a closer look

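The response of H2-T24 to IFNα at 2 h differed between B10.Q and KO macrophages by 2.18 ± 0.29 on the log2 scale (limma adjusted p = 0.011), with responses of 1.94 and -0.24 from 2 arrays per group. It was singled out because the test of the difference itself passed. Strain, age and genotype cannot be told apart in it, and the untreated KO pair rests on its title. The call was lost without either B10.Q vehicle array and without array 2 of that KO pair. With 2 arrays in a group, an extreme array cannot be tested for.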

How the results depend on the processing

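The count of the 9 genes called moved with the arrays in the fit. With only the compared groups it was 2 for macrophages at 2 h, 2 at 5 h, 0 and 1 in T cells at these times, and 2 when macrophage and T-cell responses at 5 h were compared. With all 16 arrays it was 2 for macrophages at 2 h and 2 for the B10.Q against KO response. Between vehicle cell types it reached 7, against 5 as reported. Counts of all genes moved too. Without leaving out arrays singly, they ranged from 1 to 63 in T cells at 5 h and 8 to 140 between responses at 5 h. The counts of the 9 are thus not results about these genes. Leaving out 1 array at a time gave 0 to 1 for the KO pair, 0 to 3 for B10.Q against KO, 0 to 4 for T cells at 2 h, 0 to 2 for T cells at 5 h against 2 h, and 0 to 1 for macrophages against T cells at 2 h. H2-T24 kept its call in macrophages under all 15 alternatives, at 1.60 to 2.27 at 2 h and 2.13 to 2.38 at 5 h. With the replicate block, whose numbers are not stated to pair arrays, H2-T24 in T cells at 2 h stayed at 1.68 (limma adjusted p = 0.0271). The block changed no count of the 9 genes in any contrast. Counts of all genes called ranged, over the alternatives, from 36 to 123 for macrophages at 2 h (84 as reported), 29 to 203 at 5 h (88), 0 to 1817 for T cells at 2 h (29), 8 to 491 for B10.Q against KO (43), 0 to 1191 for the KO pair (0) and 5100 to 8512 between vehicle cell types (6936). Quantile scaling moved the median of all genes between vehicle cell types from -0.07 to -0.10.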
